A study of Mus musculus with 8 samples.

Results

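Mouse embryonic stem cells of a group labelled HSVTK were compared with cells of a group labelled control, both kept with the solvent DMSO, across all genes with enough counts. The comparison takes 4 of the 8 RNA sequencing libraries of the study, which are those labelled DMSO in the 2 cell groups, with 2 libraries in each. The remaining 4 libraries come from the same 2 cell groups after GANC (ganciclovir, a nucleoside analogue), and they serve here to show whether a difference seen under DMSO was also present in separate libraries. Per the series' design text, the HSVTK cells are a reporter line, 2C::HSVTK, that ties the thymidine kinase of herpes simplex virus to the 2C-like state, so that ganciclovir can remove cells in that state. The comparison asks how the 2 cell groups differed without the drug. The labels do not give the strain, the dose, the duration of the treatment, what the Control cells carry, or whether the reporter line is 1 clone of them. No label states whether the paired libraries of each group are from different cultures. A p-value here therefore reflects no more than the scatter between them, and that scatter may be technical.

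Embryonic stem cells are grown from the inner cell mass of the early embryo and keep the ability to form its tissues, held by transcription factors such as Pou5f1, Sox2 and Nanog. A small share of them passes at any time through a state that resembles the embryo at the 2-cell stage, with transcripts of the Zscan4 family and of endogenous retroviruses. Imprinted genes, which are transcribed from only the maternal or only the paternal copy, are known to vary between lines of such cells. Genes of glucose use, of sterol synthesis and of the p53 pathway each share a regulator (Hif1a, Srebf2 and Trp53), and so tend to be read as groups.

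The 4 DMSO libraries held 29704460 to 34184475 counts assigned to genes, and mitochondrial genes took 3.04 to 3.17% of them. The biological coefficient of variation over all 8 libraries was 6.31%. A level is given in CPM, a count scaled to a common library size by TMM, and a difference is the log2 fold change of HSVTK against Control cells with its standard error. Every adjusted p is from the quasi-likelihood F test of edgeR with Benjamini-Hochberg adjustment over the 17976 genes tested, and a gene was called where it was below 0.05. Markers of embryonic stem cells summed to 5400 and 5330 CPM in the Control DMSO libraries and to 6650 and 6750 CPM in the HSVTK DMSO libraries. The largest part of the difference between these sums came from Tdgf1, while Pou5f1 and Sox2 were not called. Markers of other cell types were low, with sums of 2.46 to 7.23 CPM for primitive endoderm, 0.993 to 1.71 CPM for trophectoderm, 1.16 to 2.43 CPM for mesoderm and 8.62 to 16.8 CPM for fibroblasts over the 4 libraries. The 4 neuroectoderm markers summed to 50.8 and 47.6 CPM in Control cells and to 13.6 and 12.2 CPM in HSVTK cells, most of it from Pax6.

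1 set of genes went against what the labels lead one to look for. Genes of the 2C-like state, which the drug is meant to remove from HSVTK cells, had a higher level under the label HSVTK GANC. Against the libraries with the label Control GANC, 20 of 32 tested members were called higher and 0 lower, at a median of 1.25. Over all tested genes, 11.1% were called higher in that comparison and 14.9% lower. The direction of every difference below therefore rests on the labels. When only the 4 DMSO libraries entered the fit, 6938 genes were called, 3395 higher and 3543 lower, and 5994 of them were among the genes called with all 8 libraries.

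Under DMSO, 6060 of 17976 tested genes (33.7%) differed between the cell groups, 2957 of them higher in HSVTK cells (16.4%) and 3103 lower (17.3%). TMM centres the differences, and their median over all tested genes was 0.00308 on the log2 scale. With library size scaling in place of TMM, 3233 genes were called higher and 2818 lower, so which direction held more calls depended on the scaling. Of the called genes, 1390 differed at least 2-fold (7.73% of those tested), 698 higher and 692 lower. The CPM of the groups did not overlap for 12089 genes (67.3%), so that lack of overlap alone says little with 2 libraries in each group. A test against a change of 1.5-fold, in place of any change, called 1080 genes.

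**Figure D1:**
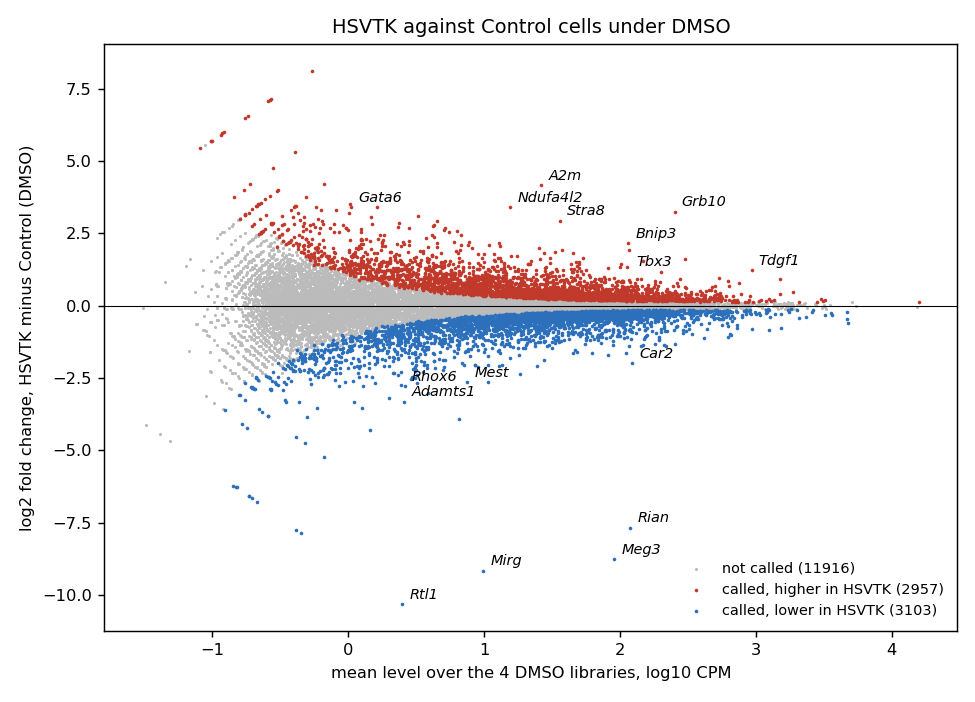
Each point is 1 of the 17976 tested genes, with its mean level over the 4 DMSO libraries on the x axis (log10 of the CPM) and the log2 fold change of HSVTK against Control cells on the y axis. Coloured points are the 2957 genes called higher and the 3103 called lower, and Meg3, Rian, Mirg and Rtl1 lie far below, and Grb10 above, other genes of their level.

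Of the genes with a mean of at least 1 CPM, those with the largest differences lay in the Dlk1-Dio3 region of chromosome 12. In this imprinted region the maternal copy gives the long non-coding RNAs Meg3, Rian and Mirg, and the paternal copy gives the proteins Dlk1, Rtl1 and Dio3. Meg3 (ENSMUSG00000021268) was at 173 and 187 CPM in the Control libraries and at 0.623 and 0.204 CPM in the HSVTK libraries. Rian (ENSMUSG00000097451), which hosts small nucleolar RNAs and microRNAs, was at 229 and 247 CPM against 1.18 and 1.14 CPM. Transcripts of the maternal copy were thus close to absent in HSVTK cells and abundant in Control cells. The log2 fold change was -8.78 ± 0.16 for Meg3 (adjusted p = 8.92e-26) and -7.67 ± 0.12 for Rian (adjusted p = 1.61e-27). These standard errors understate the error, since the HSVTK DMSO libraries held only 20 and 7 counts of Meg3 and 38 and 39 of Rian. Mirg, the third of these RNAs and a host of many microRNAs, had 1212 counts in both Control libraries together and 2 in the HSVTK libraries, a ratio of 651-fold with an exact 95% interval of 180 to 5380 that covers counting error only.

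Of the transcripts assigned to the paternal copy, Rtl1 and Dlk1 were lower too, while Dio3 was not called (0.06, adjusted p = 0.942). Rtl1, a protein derived from a retrotransposon, had 167 and 141 counts in the Control libraries and 0 in both HSVTK libraries, which is at least 110-fold lower when 3 counts over the group are taken as the floor. Rtl1 is read from the opposite strand to the maternal RNAs, and no source used here says whether the counting used strand, so its reads cannot be told apart from overlapping antisense transcripts. Dlk1, a Notch-like membrane protein at the edge of the region, was at 2.83 and 2.26 CPM against 0.779 and 0.672 CPM, a difference of -1.81 ± 0.37 (adjusted p = 0.000291). Both groups had Dlk1 at a low level and their libraries did not overlap. 2 further transcripts of the region had 0 counts in both HSVTK libraries. Gm34081 was at least 19.7-fold lower, from 25 and 30 counts, and B830012L14Rik at least 18.3-fold lower, from 24 and 27 counts. The call of B830012L14Rik was lost with limma on log2(FPKM + 1) (adjusted p = 0.0946).

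Dio3, at the far end of the region, and the nearest genes named on either side of the region were not called under DMSO. Named for their place and not by the rule for named genes, Begain and Wars1 on the side of Dlk1 had differences of -0.10 (adjusted p = 0.829) and 0.03. At the other end Dio3, itself a gene of the region, had 0.06 (adjusted p = 0.942), and beyond it Ppp2r5c had 0.02 and Dync1h1 0.08. None of these 5 was called, while Yy1 (0.33, adjusted p = 0.000159) and Hsp90aa1 (-0.47, adjusted p = 2.5e-08), which lie farther out, were. In the GANC libraries, which share no library with the DMSO comparison, the difference was -7.71 for Meg3, -8.54 for Rian and -2.74 for Dlk1, and Rtl1 had 169 and 133 counts in Control cells against 1 and 1 in HSVTK cells. Dio3 was called higher in that medium (1.38, adjusted p = 0.035), and Ppp2r5c and Dync1h1 were called lower by small amounts (-0.17 and -0.22). The low level of Meg3, Rian and Rtl1 in HSVTK cells was thus seen in all 4 of their libraries.

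Among imprinted genes elsewhere, Grb10 stood out in the other direction. Grb10 (ENSMUSG00000020176), an adaptor protein that restrains insulin receptor signalling and growth, was at 48.7 and 47.7 CPM in Control cells and at 465 and 449.6 CPM in HSVTK cells. The difference was 3.24 ± 0.06 (adjusted p = 5.49e-25) and had the lowest adjusted p of the genes called higher. Mest, a paternally expressed hydrolase, was at 12.9 and 13.1 CPM against 1.96 and 2.16 CPM, lower by -2.65 ± 0.17 (adjusted p = 1.14e-12). Under GANC, Grb10 differed by 3.63 and Mest by -2.45, so both differences were also found there. Of 50 tested imprinted genes, 5 were called higher and 20 lower, with a median of -0.159. The 50% called stands beside 33.7% of all tested genes. Under GANC the counts were 6 and 17, where 26.1% of all tested genes were called. The count of lower members dropped to 11 with limma on unfiltered log2(FPKM + 1).

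Outside imprinted genes, the 12 largest differences in each direction at a mean level of at least 1 CPM included genes that embryonic stem cells usually express little. A2m, a secreted protease inhibitor of plasma, was at 2.77 and 2.80 CPM in Control cells and at 49.0 and 51.02 CPM in HSVTK cells (4.16 ± 0.19, adjusted p = 1.15e-15). Stra8, which retinoic acid induces in germ cells before meiosis, was at 6.77 and 10.1 CPM against 63.6 and 64.3 CPM (2.93 ± 0.12, adjusted p = 1e-16). Gata6, the transcription factor of primitive endoderm, was at 0.216 and 0.137 CPM against 1.81 and 2.02 CPM (3.40 ± 0.50, adjusted p = 3.7e-06). For all 3 the groups were well apart, although Gata6 stayed near 2 CPM. Others higher were H2-Ab1, a chain of MHC class II (3.51), Ndufa4l2, a mitochondrial protein of cells short of oxygen (3.39), Aoc3, an amine oxidase (3.06), Nxph4, a secreted neurexin ligand (3.08), Pou2f3, a POU domain factor (2.93), Rhobtb1 (2.87), the mucin Muc2 (3.21) and Tbx3os2, annotated antisense to Tbx3 (3.42). In the GANC libraries, Ndufa4l2 (-2.48), H2-Ab1 (-1.86), Aoc3 (-1.62) and A2m (-0.99) were called lower in HSVTK cells. Muc2 (-1.28), Stra8 (-0.28), Rhobtb1 (0.31) and Nxph4 (0.50) were not called there. Gata6 (3.955), Pou2f3 (1.66) and Tbx3os2 (1.65) were called higher in that medium too. At a lower level, Fhad1 had 0 counts in both Control DMSO libraries and 45 and 26 in the HSVTK DMSO libraries, at least 22-fold higher, but 11 and 2 against 8 and 4 in the GANC libraries.

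Among the largest lower differences, Rhox6 and Rhox9, neighbouring homeobox genes of the X chromosome, were close to each other in level and difference. Rhox6 was at 5.26 and 3.86 CPM in Control cells and at 0.623 and 0.701 CPM in HSVTK cells (-2.78 ± 0.30, adjusted p = 1.81e-08), and Rhox9 differed by -2.76. They are close paralogs, and no source used here says how reads with several matches were counted. Rhox5 of the same cluster was lower by -1.60 ± 0.08, from 72.8 and 71.5 CPM to 22.3 and 25.4 CPM. Adamts1, a matrix metalloprotease, was at 4.40 and 5.03 CPM against 0.530 and 0.409 CPM (-3.32 ± 0.32, adjusted p = 2.05e-09). Serpina3m, a protease inhibitor (-4.30), Nkx2-9, a homeobox factor (-3.02), Dok1, a signalling adaptor (-2.68), and the non-coding RNAs Mexis (-2.67) and Mir142hg were also among them. Rhox6 and Rhox9 differed by -2.55 and -2.64 under GANC, whereas Nkx2-9 differed by -0.10 there (adjusted p = 0.81).

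**Figure D2:**
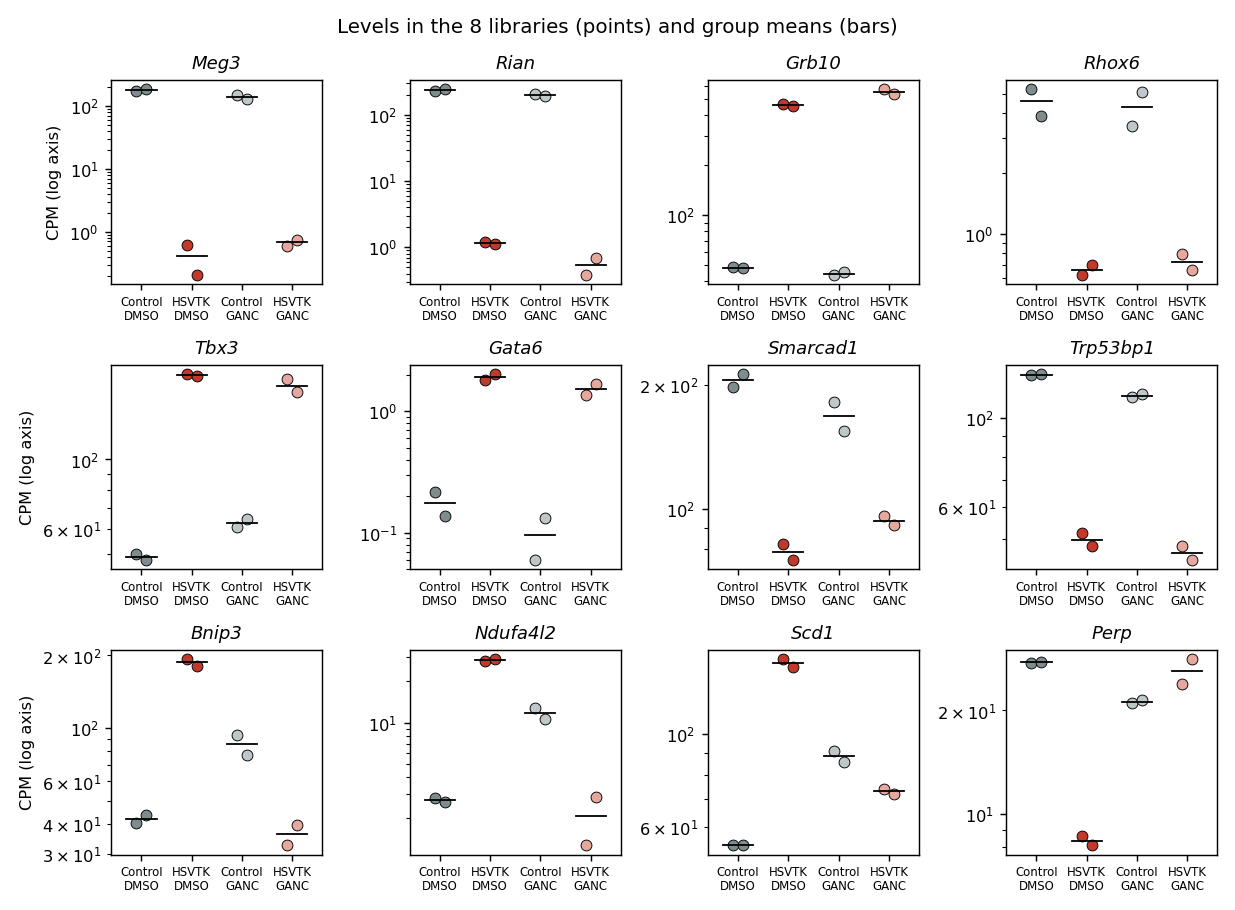
CPM of 12 genes in each of the 8 libraries, 1 panel per gene on a log axis, with the libraries grouped as Control DMSO, HSVTK DMSO, Control GANC and HSVTK GANC. Bars are group means. In the first 8 panels the cell groups are apart in the same order under DMSO and under GANC, while in those of Bnip3, Ndufa4l2, Scd1 and Perp their order under GANC is the reverse of that under DMSO.

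Among genes with a mean of at least 100 CPM, Tbx3 and Car2 had large differences in opposite directions. Tbx3, a T-box factor of naive pluripotency, was at 50.1 and 47.8 CPM in Control cells and at 187 and 184 CPM in HSVTK cells (1.92 ± 0.07, adjusted p = 3.82e-18). Car2, a carbonic anhydrase, was at 199 and 193 CPM against 48.7 and 49.9 CPM (-1.99 ± 0.07, adjusted p = 6.76e-19). Igfbp2, which binds insulin-like growth factors, was higher at 155 and 146 CPM against 437 and 472 CPM (1.59). Ifitm3, an antiviral membrane protein, was lower at 169 and 166 CPM against 51.3 and 55.3 CPM (-1.65), and Klhl13, an adaptor of a ubiquitin ligase, at 314 and 316 CPM against 118 and 119 CPM (-1.41). Under GANC the difference was 1.46 for Tbx3, -0.94 for Car2, -0.91 for Ifitm3 and -2.21 for Klhl13, while Igfbp2 had -0.01 (adjusted p = 0.93). The other abundant genes with large differences were Bnip3, Slc16a3 and Scd1, higher, and Polr1a and Smarcad1, lower, and they are described with their groups.

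Targets of the hypoxia-inducible factor other than glycolytic enzymes were mostly higher in HSVTK cells. This factor is a dimer with Hif1a that accumulates when oxygen is low, because the Egln dioxygenases that mark it for destruction need oxygen, and it raises genes of mitophagy, blood vessel growth and glucose use. Of 35 tested targets, 26 were called higher and 3 lower, with a median of 0.715. That is 74.3% higher beside 16.4% of all tested genes. Bnip3, a receptor for mitophagy, was at 40.4 and 43.6 CPM in Control cells and at 193 and 181 CPM in HSVTK cells (2.15 ± 0.09, adjusted p = 1e-16). Egln3, one of the oxygen-dependent dioxygenases and itself a target, was at 14.4 and 14.8 CPM against 53.9 and 50.9 CPM (1.84 ± 0.10, adjusted p = 1.38e-14). Ak4, a mitochondrial adenylate kinase, was at 64.2 and 64.4 CPM against 160.1 and 162 CPM (1.33 ± 0.07, adjusted p = 1.19e-14). In all 3 genes both HSVTK libraries were more than 2-fold above both Control libraries.

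Other members were Ndufa4l2, at 2.80 and 2.63 CPM against 28.1 and 29.0 CPM, and Anxa2, a membrane-binding annexin (1.63). Kdm3a, a histone demethylase that is also a known target, was lower by -1.36 ± 0.06, from 303 and 305 CPM to 118 and 119 CPM. It lies in a stretch of chromosome 6 in which most genes were lower. The transcript of Hif1a itself was lower, at 105 and 106 CPM against 77.6 and 78.1 CPM (-0.44 ± 0.07, adjusted p = 6.22e-06). The transcript of the factor and the transcripts of its targets thus differed in opposite directions.

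The promoters of the 3 targets named above are shown because the data bear on genes that share a regulator, and because the factor is known to bind ACGTG or GCGTG. Each sequence is the RefSeq promoter (GRCm38.p6), from 250 bases before to 50 after the start of transcription, in 5′ to 3′ direction of the gene. Capitals mark each match to either motif, on either strand of the promoter. Overlapping matches run together, and the E-box CACGTG holds a match on both strands. Bnip3 is at chr7:138909457-138909756 on the minus strand with 5 matches, Ak4 at chr4:101419039-101419338 on the plus strand with 2, and Egln3 at chr12:54203825-54204124 on the minus strand with 1.
Bnip3: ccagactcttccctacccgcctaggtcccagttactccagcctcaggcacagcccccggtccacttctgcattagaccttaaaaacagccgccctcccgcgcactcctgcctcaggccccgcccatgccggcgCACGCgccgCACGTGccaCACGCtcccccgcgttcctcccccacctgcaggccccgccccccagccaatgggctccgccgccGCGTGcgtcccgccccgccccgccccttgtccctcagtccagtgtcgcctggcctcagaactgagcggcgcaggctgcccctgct
Ak4: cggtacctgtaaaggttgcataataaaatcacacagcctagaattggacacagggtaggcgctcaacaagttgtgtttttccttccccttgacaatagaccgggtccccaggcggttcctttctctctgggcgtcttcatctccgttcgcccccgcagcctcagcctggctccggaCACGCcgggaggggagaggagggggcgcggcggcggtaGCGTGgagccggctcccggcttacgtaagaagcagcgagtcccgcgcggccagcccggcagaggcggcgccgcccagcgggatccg
Egln3: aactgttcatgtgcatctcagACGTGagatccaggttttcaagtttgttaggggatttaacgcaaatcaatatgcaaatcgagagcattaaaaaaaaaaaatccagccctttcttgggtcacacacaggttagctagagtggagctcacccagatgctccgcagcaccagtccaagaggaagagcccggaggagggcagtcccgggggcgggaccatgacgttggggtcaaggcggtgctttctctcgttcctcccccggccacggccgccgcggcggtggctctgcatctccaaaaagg
A match was found in 75.6% of the 41 promoters of hypoxia and glycolysis genes called higher, in 77.6% of the 58 promoters of all tested members, and in 61.4% of the 11970 promoters of all tested genes. It was found in 65.7% of the promoters of all genes called higher and in 61.2% of those called lower. A match describes letters in this window and is no measured binding site.

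Glycolysis and glucose uptake differed in the same direction, with 22 of 32 tested members called higher, 3 lower and a median of 0.407. This is 68.8% of the members beside 16.4% of all genes. At the entry and exit of the pathway, the glucose transporter Slc2a3 was higher by 0.79 and the lactate exporter Slc16a3 rose from 76.2 and 73.0 CPM to 217 and 222 CPM (1.56 ± 0.07, adjusted p = 1.34e-16). Of the enzymes, Aldoc, an aldolase, was at 12.7 and 11.8 CPM against 42.2 and 43.9 CPM (1.81 ± 0.11), Pfkl, a phosphofructokinase, differed by 0.77, and Pgk1, a phosphoglycerate kinase, was at 1078 and 1021 CPM against 1939 and 1980 CPM (0.90 ± 0.06, adjusted p = 9.87e-13). The step before them did not share the direction. Hk2, a hexokinase, was lower at 287 and 286 CPM against 159 and 153 CPM (-0.88 ± 0.06), and it lies in the stretch of chromosome 6. Without members in the 2 stretches of chromosomes 2 and 6, 22 of 31 remained higher and 2 lower.

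Cholesterol and fatty acid synthesis was higher as a group in HSVTK cells. The factor Srebf2 activates genes of sterol synthesis when the membrane of the endoplasmic reticulum is short of cholesterol, and the related factor Srebf1 activates genes of fatty acid synthesis. Of 42 tested members, 29 were called higher (69% beside 16.4% of all genes) and 1 lower (2.38% beside 17.3%), with a median of 0.453. Scd1, a desaturase that makes oleic acid, was at 54.2 and 54.4 CPM in Control cells and at 151 and 145 CPM in HSVTK cells (1.45 ± 0.07, adjusted p = 1.22e-15). Its paralog Scd2 was at 449 and 448 CPM against 838 and 769.7 CPM (0.84 ± 0.05, adjusted p = 5.8e-13). Dhcr7, the last enzyme of cholesterol synthesis, differed by 1.15 ± 0.08, Fads2, a desaturase of polyunsaturated fatty acids, by 0.94, and Insig1, which retains the sterol sensor in the endoplasmic reticulum, by 0.92. The member that was lower, Abca1, exports cholesterol from the cell. It was at 23.5 and 24.2 CPM against 8.69 and 8.79 CPM (-1.45 ± 0.11, adjusted p = 2.02e-11), so the exporter and the synthesis genes differed in opposite directions.

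p53 and its targets were mostly lower. The transcription factor p53, encoded by Trp53, responds to DNA damage and other stress by raising genes that halt the cell cycle, repair DNA or start cell death. Of 44 tested members, 29 were called lower (65.9%) and 3 higher, with a median of -0.455, beside 17.3% lower among all tested genes. Perp, a membrane protein of p53-dependent cell death, was at 27.5 and 27.7 CPM in Control cells and at 8.63 and 8.12 CPM in HSVTK cells (-1.72 ± 0.11, adjusted p = 9.87e-13). Ccng1, a cyclin that acts on the p53 pathway, was at 264 and 262 CPM against 138 and 144 CPM (-0.90 ± 0.06, adjusted p = 1.06e-12). Cdkn1a, the cyclin-dependent kinase inhibitor p21, was at 46.0 and 43.0 CPM against 26.3 and 29.2 CPM (-0.68 ± 0.09, adjusted p = 1.07e-06). In each of these the HSVTK libraries lay below both Control libraries.

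Trp53 itself was lower by a smaller amount, at 440.5 and 418 CPM against 345 and 343 CPM (-0.32 ± 0.06, adjusted p = 0.000203), and Mdm2, the ubiquitin ligase that degrades p53, differed by -0.33. Both calls were lost with limma on unfiltered log2(FPKM + 1), with adjusted p = 0.067 for Trp53 and 0.0505 for Mdm2. Further members called lower were Plk2, a kinase (-1.06), Zmat3, an RNA-binding protein (-0.67), Dcxr, a carbonyl reductase (-1.36), and Ercc5, a nuclease of excision repair (-0.86). 2 of the 29 lower members lay in the stretches of chromosomes 2 and 6, and 27 of 41 were lower without them.

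Repair, replication and cell division genes differed from list to list, and their shares are to be read beside 16.4% higher and 17.3% lower over all genes. Of 42 genes of homologous recombination and the Fanconi anaemia pathway, 11 were called higher (26.2%) and 10 lower (23.8%), with a median of 0.0612. Of 49 genes of end joining, mismatch and excision repair, 7 were higher (14.3%) and 16 lower (32.7%), at a median of -0.158. Trp53bp1, a protein of DNA breaks that favours end joining, had the lowest adjusted p of them and was at 128 and 128 CPM against 51.7 and 48.2 CPM (-1.36 ± 0.07, adjusted p = 9.35e-15). Replication and checkpoint genes had 20 of 62 higher (32.3%) and 7 lower (11.3%, median 0.0825), with E2f1, which drives entry into S phase, at 0.66 and Mcm2, a subunit of the replicative helicase, at -0.81. Of 48 genes of G2/M and mitosis, 9 were higher (18.8%) and 12 lower (25%), and Mad2l1, a protein of the spindle checkpoint, differed by -1.09. Trp53bp1 lies in the stretch of chromosome 2, and Mcm2 and Mad2l1 lie in that of chromosome 6. A list named for replication-dependent histones had 5 of 45 higher, a smaller share than over all genes (11.1% beside 16.4%), and 0 lower (median 0.607). Among the former was the linker histone H1f0 (1.31), which is in the list but is not itself replication-dependent. Whether RNA was selected for poly(A) tails, which bears on histone levels, is given by no source used here.

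Germline and meiotic genes, most of which are silenced by methylation or by repressor complexes in embryonic stem cells, were more often higher. Of 50 tested, 23 were called higher (46% beside 16.4% of all genes) and 3 lower (6% beside 17.3%), with a median of 0.63. Kit, the receptor that germ cells need to survive, was at 28.7 and 29.3 CPM in Control cells and at 74.1 and 68.2 CPM in HSVTK cells (1.30 ± 0.08, adjusted p = 6.78e-13). Syce2, a protein of the synaptonemal complex, was at 51.6 and 50.2 CPM against 99.2 and 105 CPM (1.00 ± 0.08), and Stag3, the meiotic cohesin subunit, at 47.5 and 49.9 CPM against 93.4 and 91.2 CPM (0.92 ± 0.08). These 3 were expressed in Control cells already, and HSVTK cells had about double the level or more. Aurkc, the Aurora kinase of meiosis, was at 7.08 and 5.61 CPM against 18.5 and 20.9 CPM (1.63), and Mael, a protein of the piRNA pathway, differed by 1.05. Under GANC 13 members were called higher and 6 lower, beside 11.1% and 14.9% of all tested genes.

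Of the core factors of pluripotency, Pou5f1 and Sox2 were not called. Pou5f1 was at 618 and 582 CPM in Control cells and at 627 and 639 CPM in HSVTK cells (0.08 ± 0.06, adjusted p = 0.313), and Sox2 was at 428 and 437 CPM against 439 and 448 CPM (0.04 ± 0.05, adjusted p = 0.656). Nanog was slightly higher, at 547 and 564 CPM against 629 and 626 CPM (0.18 ± 0.05, adjusted p = 0.00926), a call that was lost without Control DMSO replicate 1 (adjusted p = 0.139), without HSVTK DMSO replicate 1 (0.0866) and without HSVTK DMSO replicate 2 (0.0775). Of the 36 core and naive genes, 14 were higher (38.9% beside 16.4% of all genes) and 9 lower (25% beside 17.3%). Besides Tbx3, Tdgf1, a co-receptor for Nodal, was at 558 and 563 CPM against 1291 and 1316 CPM (1.22 ± 0.05, adjusted p = 1.81e-16), and Klf4, a zinc finger factor, differed by 0.80 and Tet2, a methylcytosine dioxygenase, by 0.60. L1td1, an RNA-binding protein (-0.67), and Nr0b1, a nuclear receptor (-0.50), were lower.

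Genes of the formative and primed states, which follow naive pluripotency in the embryo, were split. Of 29 tested, 9 were higher (31% beside 16.4% of all genes) and 12 lower (41.4% beside 17.3%), at a median of -0.18. Zic5 and Zic2, zinc finger factors, were higher by 1.43 and 1.25, and Lef1, a factor of Wnt signalling, was at 11.1 and 10.46 CPM against 24.9 and 24.9 CPM (1.21 ± 0.11, adjusted p = 1.89e-09). Otx2, an early factor of the formative state, differed by 1.00. Cdh2, the cadherin of cells that leave the epithelium, was lower at 5.20 and 5.27 CPM against 0.810 and 1.43 CPM (-2.21), as was Dnmt3l, a cofactor of DNA methylation (-0.60). In the Nodal and BMP pathway, 6 of 28 were higher (21.4% beside 16.4% of all genes) and 9 lower (32.1% beside 17.3%). The BMP target genes Id1 and Id2, inhibitors of differentiation factors, were lower by -1.63 ± 0.08 and -1.89 ± 0.10, while Inhbb, an activin subunit, was at 19.8 and 20.6 CPM against 71.4 and 70.2 CPM (1.81 ± 0.09, adjusted p = 1.26e-15). Of 19 genes of the LIF pathway, 8 were higher (42.1%) and 8 lower (42.1%). Among the former were the receptor chains Il6st (0.57) and Lifr (0.45), and among the latter the feedback inhibitor Socs2 (-1.10).

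The 2C-like state, which the reporter is built on, had few genes called between the cell groups under DMSO (15.6% of the members beside 33.7% of all genes). Of 32 tested genes of this state, 1 was called higher and 4 lower, with a median of -0.0218. All 32 together summed to 90.33 to 98.74 CPM in the DMSO libraries. Differences are harder to call at low levels, so the low share does not show equal levels. Zscan4c had 170 and 120 counts in Control libraries and 151 and 123 in HSVTK libraries (-0.18, adjusted p = 0.516), and Zscan4f differed by 0.01. Zscan4d had 173 and 120 counts against 220 and 276 (0.66), and this call was lost without Control DMSO replicate 2 (adjusted p = 0.0739) and without HSVTK DMSO replicate 2 (0.0609). The Zscan4 genes are near-identical copies, so reads could be split among them and the differences between copies are uncertain. The members called lower were Pramel6 (-2.40) and Pramel7 (-1.24), which lie in the stretch of chromosome 2, with Tdpoz4 (-1.89) and Pwwp3b (-0.65). Of 40 known repressors of the state, 4 were higher (10% beside 16.4% of all genes) and 13 lower (32.5% beside 17.3%), and Smarcad1, a chromatin remodeller in the stretch of chromosome 6, was lower at 198 and 212 CPM against 82.2 and 75.1 CPM (-1.39 ± 0.07, adjusted p = 1.53e-14).

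The longer lists of lineage markers also hold abundant genes, such as Apoe, so a count over a list does not speak for the few defining markers. Of 26 primitive endoderm markers tested, 9 were called higher (34.6% beside 16.4% of all genes) and 3 lower, with a median of 0.527. Beside Gata6, Gata4 was at 0.554 and 0.445 CPM against 2.52 and 1.46 CPM (1.98 ± 0.45, adjusted p = 0.00102), a call that limma on unfiltered log2(FPKM + 1) did not make (adjusted p = 0.0601). The basement membrane collagens Col4a1 and Col4a2 were higher by 1.79 ± 0.14 and 2.04 ± 0.21, and laminin Lama1 by 0.56. Apoe, a lipoprotein that the same lineage secretes, was lower at 473 and 434 CPM against 219 and 243 CPM (-0.98 ± 0.06), and so was Fst, an activin antagonist (-1.31). The 5 defining markers of primitive endoderm summed to 3.48 and 2.46 CPM in Control cells and to 7.23 and 6.51 CPM in HSVTK cells, with none at 0 in all DMSO libraries. In bulk RNA, more cells of a type and more RNA per cell cannot be told apart. Of 17 neuroectoderm markers, 3 were higher (17.6% beside 16.4% of all genes) and 6 lower (35.3% beside 17.3%). Pax6, a factor of eye and brain, was at 39.9 and 39.6 CPM against 9.66 and 8.94 CPM (-2.10 ± 0.11, adjusted p = 2.47e-14) and lies in the stretch of chromosome 2. Of 26 trophectoderm markers, 4 were higher (15.4%) and 7 lower (26.9%). Of 15 fibroblast markers, 6 were higher (40%) and 2 lower (13.3%), with Thy1 at 7.88 and 7.76 CPM against 15.1 and 15.7 CPM (0.98). In the GANC libraries, 2 of these 15 were called higher and 4 lower (median -0.2), beside 11.1% and 14.9% of all tested genes.

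Collagens and genes of matrix remodelling had 17 of 41 members higher (41.5% beside 16.4% of all genes) and 7 lower (17.1% beside 17.3%), at a median of 0.483. In the GANC libraries, 5 members were called higher and 11 lower (median -0.182), beside 11.1% and 14.9% of all tested genes. The interaction was called for 21 of the 41, beside 25.6% of all tested genes. P4ha1, a prolyl hydroxylase of collagen that is also a hypoxia target, differed by 1.49 ± 0.10, Plod1, a lysyl hydroxylase, by 1.05, Nid2, a nidogen of basement membranes, by 0.63, and Loxl2, a lysyl oxidase, was at 1.11 and 1.09 CPM against 7.38 and 7.33 CPM (2.74 ± 0.24). The 6 defining markers of fibroblasts summed to 8.62 and 9.20 CPM in Control cells and to 15.9 and 16.8 CPM in HSVTK cells, most of it from Thy1. Of the others, Col1a1 had 13 and 24 counts against 20 and 32, Col1a2 had 7 and 12 against 4 and 5, Dcn had 4 and 4 against 0 and 0, Col3a1 had 0 and 2 against 0 and 0, and Lum was at 0 in all 4 DMSO libraries. The sum was thus higher through Thy1, and the collagens and Dcn among the markers were at few counts in both groups. The part of such cells in these values was not tested.

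Targets of NRF2 and genes of glutathione metabolism, which protect against oxidants, were more often lower. Of 38 tested, 3 were higher (7.89% beside 16.4% of all genes) and 20 lower (52.6% beside 17.3%), with a median of -0.233. Nqo1, a quinone reductase, was at 46.6 and 50.02 CPM in Control cells and at 21.96 and 21.7 CPM in HSVTK cells (-1.15 ± 0.09, adjusted p = 1.72e-11). Prdx6, a peroxiredoxin, was lower by -0.62, Gstm2, a glutathione transferase, by -1.33, and G6pdx, which supplies NADPH, by -0.57. Gpx2, a glutathione peroxidase, went the other way at 8.62 and 6.15 CPM against 20.5 and 20.9 CPM (1.48 ± 0.13). Catalase (Cat) was lower by -0.82 and lies in the stretch of chromosome 2. Of 34 chaperones, 13 were higher (38.2% beside 16.4% of all genes) and 8 lower (23.5% beside 17.3%). Those of the endoplasmic reticulum included Sdf2l1 (1.27), Herpud1 (0.79), Hyou1 (0.66) and Pdia6 (0.65), all higher, while the cytosolic chaperone Hsp90aa1 was lower by -0.47.

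Of 90 cytosolic ribosomal protein genes, 6 were higher and 4 lower (11.1% called beside 33.7%), and of 86 nuclear genes of oxidative phosphorylation, 20 were higher and 6 lower (30.2% called, median 0.0542). Of 15 mitochondrially encoded genes, 2 were higher (13.3% beside 16.4% of all genes) and 4 lower (26.7% beside 17.3%), with mt-Cytb at -0.60. Of 29 interferon response genes, 4 were higher (13.8% beside 16.4% of all genes) and 9 lower (31% beside 17.3%), among the latter the RNA sensor Rigi (-0.90) and the signalling factor Irf9 (-0.94) beside Ifitm3. In the class I pathway of antigen presentation, H2-K1 and H2-D1 were higher by 1.08 and 1.21, and B2m, their shared light chain, was lower by -0.95 and lies in the stretch of chromosome 2. Of 38 genes of nucleoside metabolism and transport, which could act on a nucleoside drug, 5 were higher (13.2%) and 14 lower (36.8% beside 17.3%). The cellular thymidine kinase Tk1 was at 74.3 and 73.8 CPM against 97.5 and 99.0 CPM (0.41 ± 0.07, adjusted p = 5.17e-05). The transcript of the viral kinase was not analysed here.

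**Figure D3:**
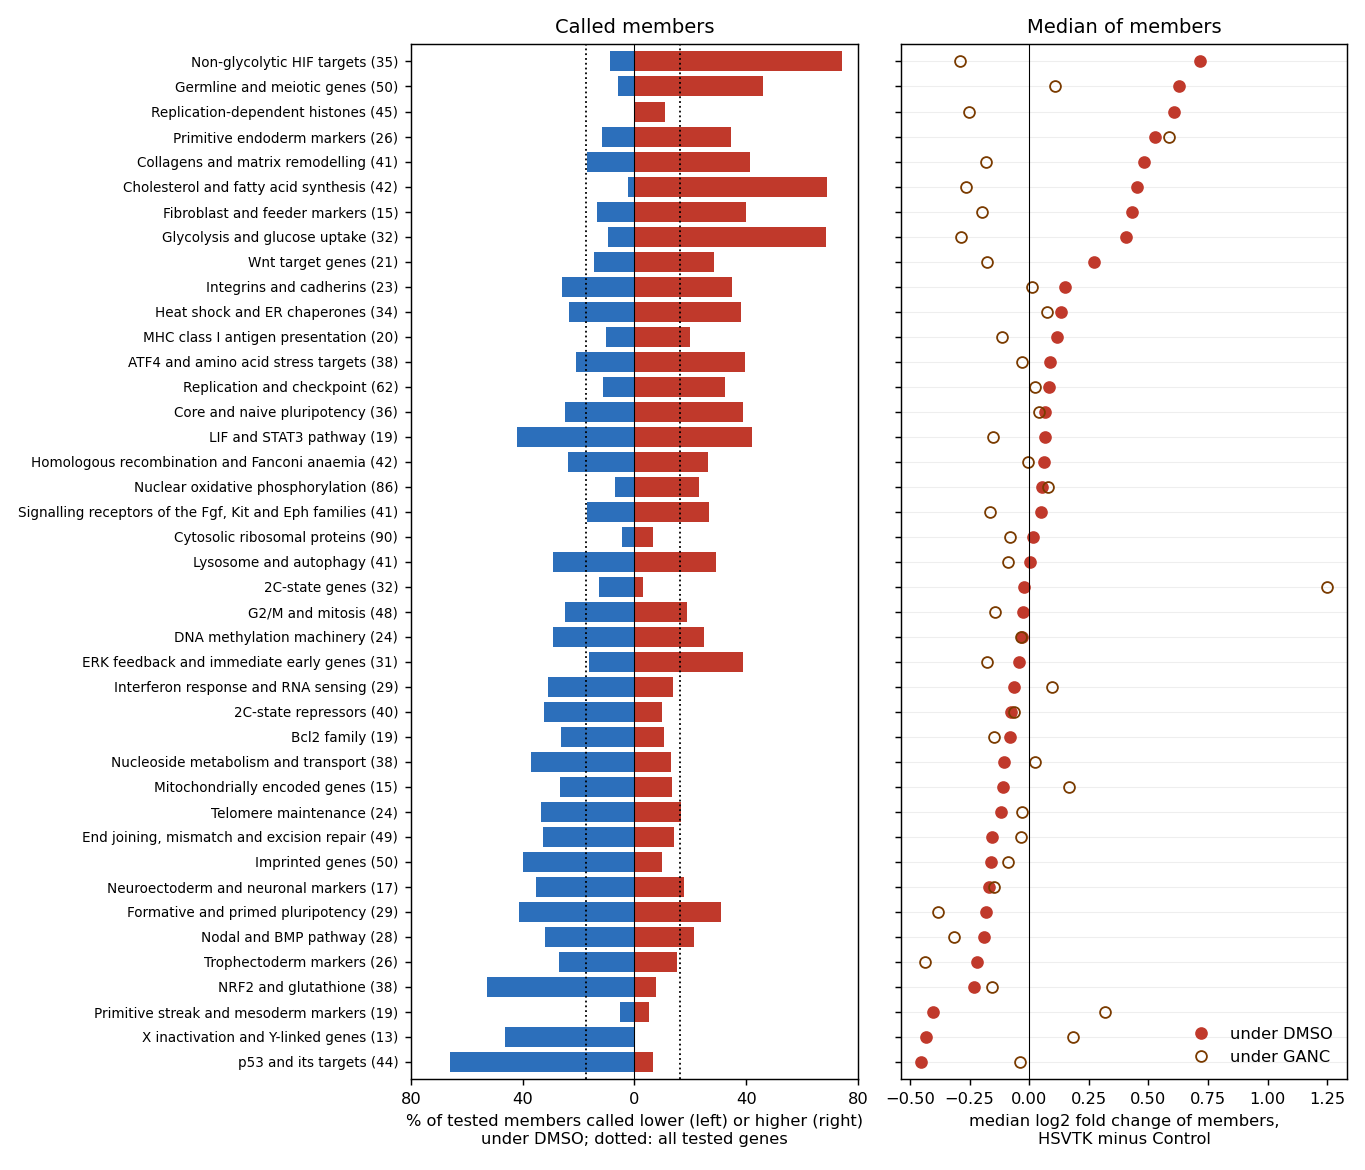
Each row is 1 of 41 gene lists, with the percentage of its tested members called higher and lower in HSVTK cells under DMSO (bars, with dotted lines at 16.4% and 17.3% for all tested genes) and its median log2 fold change under DMSO (filled) and GANC (open). The non-glycolytic HIF targets (26 of 35 higher), glycolysis (22 of 32 higher), cholesterol and fatty acid synthesis (29 of 42 higher) and p53 targets (29 of 44 lower) extend farthest from the dotted lines, and their open points lie nearer to 0 or across it.

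Neighbouring genes were lower together in 2 stretches of the genome. The median log2 fold change in a moving window of 31 genes, taken among genes with at least 5 CPM on average, lay beyond 0.35 from 0 in a run on chromosome 6 from Tra2a to Arl8b and in one on chromosome 2 from Mtx2 to Sppl2a. The run on chromosome 6 held 160 such genes, of which 129 were called lower (80.6%) and 8 higher, with a median of -0.906, a ratio of 0.534. On the rest of chromosome 6, 53 of 278 genes were lower and 91 higher, with a median of 0.0782. The run on chromosome 2 held 203 genes, of which 149 were lower (73.4%) and 7 higher, with a median of -0.506, a ratio of 0.704. On the rest of that chromosome, 128 of 604 were lower (21.2%). The runs were found with these values, so these counts describe them and test nothing. Their windows reach about 15 genes past the change at each end: on chromosome 6 the values stepped from -0.33 at Tax1bp1 to -1.76 at its neighbour Scrn1. With a window of 21 genes or a limit of 0.5, the run on chromosome 2 split into 3, and with a limit of 0.25 another run, of 48 genes on chromosome 10 with a median of 0.175, appeared.

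The runs were chosen on the differences under DMSO, among genes whose mean level over all 8 libraries was at least 5 CPM, so the GANC libraries entered that minimum but their differences did not enter the choice. The median difference between the cell groups under GANC was -0.877 for the genes on chromosome 6 and -0.518 for those on chromosome 2, with 131 and 155 genes called lower. Relative to the mean of Control DMSO, the median ratio over the genes on chromosome 6 was 0.534 to 0.55 in the 4 HSVTK libraries and 0.981 to 1 in the 4 Control libraries. On chromosome 2 it was 0.701 to 0.704 and 0.983 to 1. The 2 cell groups were thus separated in every library in both media. The genes with the lowest adjusted p on chromosome 6 were Kdm3a, Immt, which shapes mitochondrial cristae (-1.33 ± 0.06), Fam136a (-1.36 ± 0.06) and Hmces, which shields abasic sites in DNA (-1.34 ± 0.06). Picked by adjusted p, they do not stand for the run, whose quartiles were -1.12 and -0.463. On chromosome 2 the genes with the lowest adjusted p were Trp53bp1, Pax6, Caprin1, an RNA-binding protein (1577 and 1616 CPM against 899 and 870.1 CPM, -0.85 ± 0.05), and Qser1 (-1.17 ± 0.07). Polr1a, the largest subunit of RNA polymerase I, lies in the run on chromosome 6 too and was at 167 and 169 CPM against 67.2 and 60.1 CPM (-1.40). The runs together held 634 tested genes of any level (3.53%) and 357 of the genes called lower (11.5%).

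**Figure D4:**
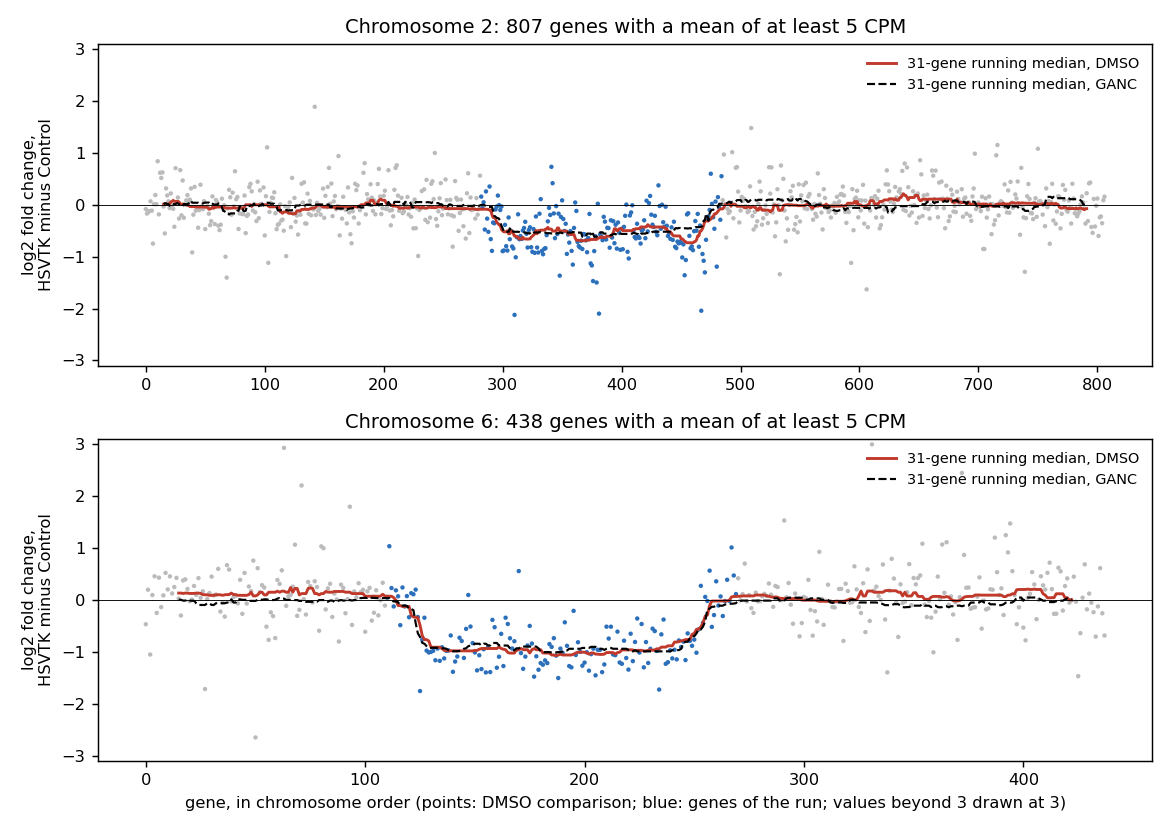
Log2 fold change of HSVTK against Control cells for 807 genes of chromosome 2 and 438 genes of chromosome 6, in gene order along the x axis, with running medians over 31 genes under DMSO (solid red) and GANC (dashed). Both lines leave 0 together in 1 stretch of each chromosome, near -0.5 on chromosome 2 and near -0.9 on chromosome 6.

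Across all genes, the difference between the cell groups under DMSO was in part found again under GANC. There, 4685 genes were called (26.1%), 2004 higher (11.1%) and 2681 lower (14.9%), and 2999 genes were called without HSVTK GANC replicate 2. In the same direction in both media were 1628 genes (9.06% of those tested), which is 26.9% of the calls under DMSO and 34.7% of those under GANC, and 724 (4.03%) were called in opposite directions. Of the genes that differed at least 2-fold under DMSO, 417 of 1390 were called in the same direction under GANC. The change of the cell group difference between media was tested as an interaction, GANC minus DMSO, which shares the DMSO libraries with the comparison above. It was called for 4595 genes (25.6%), 2087 with a positive and 2508 with a negative value.

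Meg3, Rian, Grb10, Gata6 and Rhox6 had differences of the same direction in both media, and so did the medians of both runs. The interaction was 0.56 for Gata6 (adjusted p = 0.68), 0.23 for Rhox6 (adjusted p = 0.75) and 0.20 for Mest (adjusted p = 0.62), and these misses of the threshold do not show equal differences. Meg3 and Grb10 had values of 1.07 (adjusted p = 0.047) and 0.39 (adjusted p = 0.0011). In the runs, the interaction was called for 30% of the genes on chromosome 6 and 37.9% of those on chromosome 2, beside 25.6% of all genes. The run genes had a mean of at least 5 CPM, whereas all genes include lower levels, so these shares are not of like sets.

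The gene groups of low oxygen, glycolysis, sterol synthesis and p53 had other values under GANC. Over all tested genes, 11.1% were called higher and 14.9% lower in that medium. Of the 35 HIF targets, 1 was higher and 18 lower there (median -0.29), of the 32 glycolysis genes 1 was higher and 20 lower (median -0.285), and of the 42 cholesterol and fatty acid genes 3 were higher and 26 lower (median -0.264). The direction of these 3 groups between the cell groups was thus the reverse of that under DMSO. Of the 44 p53 genes, 12 were higher and 11 lower under GANC, at a median of -0.0408. The interaction was called for 26 of the 35 HIF targets, 24 of the 32 glycolysis genes, 33 of the 42 cholesterol genes and 28 of the 44 p53 genes. Of all tested genes it was called for 25.6%.

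Single genes showed which libraries moved. Bnip3 was at 93.7 and 77.1 CPM in Control GANC and at 32.6 and 39.7 CPM in HSVTK GANC, a difference of -1.24 and an interaction of -3.40 (adjusted p = 1.8e-17). Slc16a3 was at 142 and 144 CPM against 67.4 and 74.2 CPM, so that the HSVTK libraries were the higher ones under DMSO and the lower ones under GANC. Scd1 was at 91.1 and 86.0 CPM against 74.1 and 72.0 CPM, and Perp at 20.97 and 21.4 CPM against 23.8 and 28.2 CPM, with interactions of -1.73 and 2.02. For Bnip3, Slc16a3 and Scd1 the level in Control cells was higher under GANC than under DMSO, and that in HSVTK cells was lower.

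**Figure D5:**
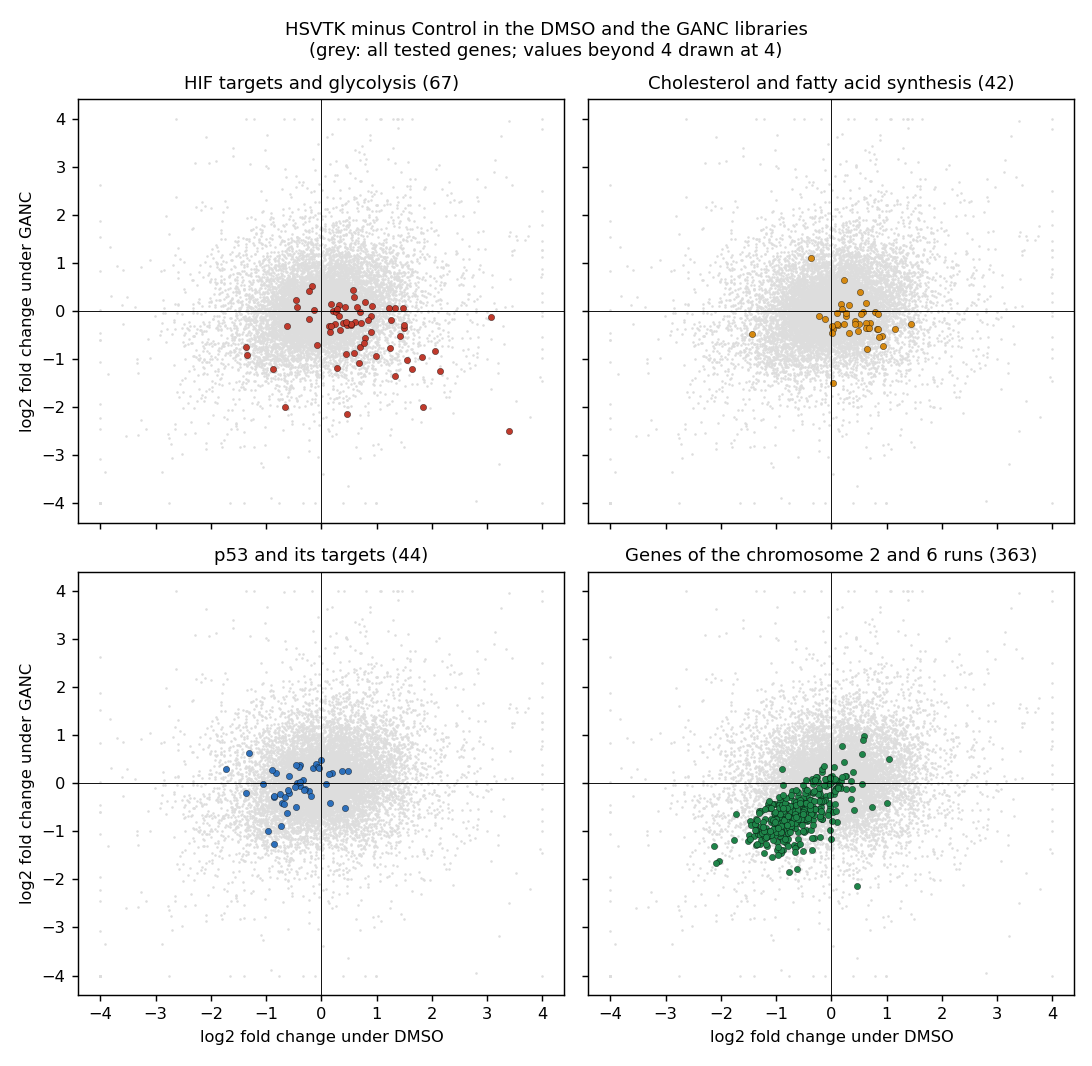
Log2 fold change of HSVTK against Control cells under DMSO (x axis) and under GANC (y axis) for the genes of 4 sets, 1 panel each, namely 67 HIF and glycolysis genes, 42 cholesterol and fatty acid genes, 44 p53 genes and the 363 genes of the 2 runs. Grey points are all tested genes, and values beyond 4 are drawn at 4. The first 2 sets lie mostly at positive x and negative y, the p53 genes at negative x and around 0 on y, and the run genes at negative values on both axes.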

How the data were processed

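RNA was sequenced from 8 libraries of mouse embryonic stem cells, 2 each of Control and HSVTK cells with DMSO or GANC, grouped by the labels' cell group and treatment. Per the labels' protocols, phenol and chloroform served for the RNA and the VAHTS Universal V6 kit for the libraries. Per the submitters' processing notes, the build was GRCm39 and the tools included featureCounts 2.0.1, HISAT2 2.1.0, DESeq2 1.40.2 and fastp 0.23.2. No source used here gives the strand setting, the handling of reads with several matches or the release of the annotation. The authors deposited raw counts for 57010 genes, of which 1606 have no symbol, and FPKM values, which were checked to equal counts over gene length and library total within 4.9e-06.

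Counts were tested with edgeR 4.0.16 in R 4.3.3 (quasi-likelihood F test, TMM scaling, filterByExpr by group, all 8 libraries with a mean per group, 4 residual degrees of freedom), which kept 17976 genes. A standard error was computed as log2 fold change over the root of the F statistic, and it understates the error where a group has few counts. A group at 0 was set to a floor of 3 counts over the group. Intervals and floors cover counting error only. Counting noise alone did not account for the scatter within groups (chi-square per degree of freedom 3.58 in HSVTK DMSO and 3.86 in Control DMSO). With known changes in simulated counts of the DMSO comparison (200 of 17976 genes, 3 simulations), 73.1% of 1.5-fold, 86.6% of 2-fold and 100% of 4-fold changes were recovered, with 5.12% false calls. The changed genes had a mean of at least 1 CPM, and the simulated spread followed only the trend with level. Far fewer genes were changed than were called in the data, so these percentages do not carry over to the comparison itself.

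Gene order came from GENCODE vM21 by Ensembl ID (17556 tested genes), which belongs to GRCm38, so no coordinates are taken from it. Promoter sequences are from RefSeq (GRCm38.p6), matched by symbol. The 41 gene lists, written from general knowledge, the rule for named genes and the members of each group were chosen with earlier results of these data known. Named genes were the 12 largest differences each way among called genes with a mean of at least 1 CPM over the DMSO libraries and no overlap (4 symbols that are only a model number were passed over among the lower ones), the 6 largest each way at a mean of at least 100 CPM and among genes with the interaction also called at 5 CPM, up to 6 called members with the lowest adjusted p of each list with 3 or more, genes at 0 in 1 group, up to 4 genes per run, and a set of well-known markers. Dlk1 and Dio3, the genes next to their region and those at the end of a run were named for their place after their values were seen. Alternatives were another scaling, no or a stricter filter, DESeq2 1.42.0, limma 3.58.1 on log2(FPKM + 1) and log2(FPKM + 0.1), a test against 1.5-fold, the replicate block, each library left out, and other windows for runs.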

Additional observations from a re-analysis of the deposited data

Results flagged for a closer look

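The difference between the cell groups changed between media, by a test of the interaction (GANC minus DMSO, edgeR quasi-likelihood F test with Benjamini-Hochberg adjustment), for 4595 genes. This test shares the DMSO libraries with the comparison under DMSO. Among genes with a mean of at least 5 CPM that were called in both tests, the lowest values were Ndufa4l2 at -5.88, A2m at -5.15, Aurkc at -3.88, Egln3 at -3.83, Pgm1 at -3.41 and Bnip3 at -3.40. For each of these 6, HSVTK cells had the higher level under DMSO and the lower one under GANC. The highest values were 2310043M15Rik at 2.79, Mirg at 2.74, Apol6 at 2.64, Nckap1l at 2.23, Serpinb9b at 2.11 and Prex2 at 2.05. The value of Mirg rests on very few counts in the HSVTK libraries, where it was close to absent in both media. With 2 libraries in each group, no library could be tested for standing apart from its group.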

How the results depend on the processing

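The count of 6060 genes under DMSO was 3652 with limma on unfiltered log2(FPKM + 1), where the cause of the lower count was not tested, and 1080 in a test against 1.5-fold, which asks for more than a difference. It was 5463 with DESeq2, 5152 and 5178 with limma on filtered values, 5763 without a filter, and 4399 to 6560 with each library left out. Scaling by library size gave 6051 calls, 3233 higher and 2818 lower. The count under GANC was 2288 and 589 in the first 2 settings, and 2999 to 4497 with each library left out. The interaction count was 1981 with unfiltered limma and 3415 to 4638 with each library left out. In the test against 1.5-fold, members called were 14 for HIF targets, 7 for glycolysis, 8 for cholesterol, 9 for p53 targets, 13 for germline genes, 9 for collagens, 4 for NRF2, 8 for imprinted genes (11 with unfiltered limma) and 41 for the lower genes of the run on chromosome 2. These 8 lists were chosen after their counts were seen. Over all 41 lists and 820 pairs of list and setting, 85 counts moved by over 1.5 times, 36 of them in the test against 1.5-fold, and 21 lists moved in another setting. Of 263 called named genes, 35 lost the call in a setting other than that test. With each library left out, 5 genes that were not called changed direction, with values of -0.375 to 0.0147 for Zscan4c, -0.14 to 0.152 for Zscan4f, -0.174 to 2.37 for Sox17, -1.02 to 0.654 for Cdx2 and -0.0697 to 0.964 for Col1a1. Deviations of same-numbered libraries correlated at -0.0319 to 0.0145, so no shared deviation by replicate number was seen. This cannot tell whether same-numbered libraries were handled together, which the labels do not say. With the replicate number as a block, 5882 genes were called under DMSO, 4517 under GANC and 4433 for the interaction. When a library is left out, the lone library of its group is assumed to vary like the other groups. With 2 libraries in each group, small differences could be missed. In the simulated counts, whose setting differs from the data, 73.1% of 1.5-fold changes were recovered. Levels near the floor of 3 counts carry little precision.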
